A study of Caenorhabditis elegans with 8 samples.

Results

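The genes described here are the dumpy, roller and squat collagens *dpy-2*, *dpy-3*, *dpy-7*, *dpy-8*, *dpy-10*, *dpy-13*, *dpy-17*, *rol-6*, *sqt-1* and *sqt-3*, a set of cuticle collagens named after the body shape of their mutants. They were chosen by name, and a gene was measured by the probe set whose platform annotation gives its symbol alone. This rule found 9 of the 10 genes, each with 1 probe set, among 25478 genes on an array of 29317 probe sets. No probe set is listed under *dpy-10*. Its place is taken by a probe set that the platform lists under T14B4.19, a gene overlapping *dpy-10* in the RefSeq annotation, and that the study itself names *dpy-10*. RNA of overlapping genes cannot be told apart by such a probe set, so its values are given apart as those of the *dpy-10* probe set and it is left out of the counts over 9 genes unless it is named.

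Whole-worm RNA of *dyf-1(mn335)* and of the wild-type strain N2, 4 samples each, was hybridised to Affymetrix gene arrays, all from synchronised hermaphrodites on day 1 of adulthood. DYF-1 is needed to build the distal segments of sensory cilia, and the mutant strain carries this allele throughout the animal. The study describes the 4 samples of each strain as independent replicates and each as RNA of a pool of worms. The deposited values are log2 expression values per probe set and array, as defined with the processing steps, and the question is which transcripts differ between worms with defective sensory cilia and wild-type worms.

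The cuticle of *C. elegans* is a collagen matrix that the epidermis secretes anew for every larval stage and for the adult. Its circumferential annuli are separated by annular furrows. *dpy-2*, *dpy-3*, *dpy-7*, *dpy-8* and *dpy-10*, together with *dpy-9*, encode the collagens of these furrows, and their loss removes the furrows and shortens the body. *dpy-13* encodes a collagen of the annuli between the furrows. *dpy-17* and *sqt-3* encode collagens known to act together in secretion and assembly, and *rol-6* and *sqt-1* encode related collagens whose altered forms twist the cuticle into a helix. The last 5 of these are thus body shape collagens that are not known as parts of the furrow. In development, transcripts of this kind rise and fall with each moult.

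*dyf-1* itself had log2 values of 6.85 to 7.48 in the mutant arrays and of 5.61 to 6.26 in the wild-type arrays, and since neither the labels nor the study's methods give the lesion of *mn335*, this does not check the labels. The 4th array of each strain stood apart. Wild-type replicate 4 correlated over all probe sets at 0.976 to 0.978 with mutant replicates 1 to 3 and at 0.958 to 0.974 with wild-type replicates 1 to 3, and the last 3 at 0.987 to 0.992 with each other. For mutant replicate 4 the correlations with mutant replicates 1 to 3 were 0.978 to 0.984, and those 3 arrays reached 0.993 to 0.994 with each other. Results on the collagens are therefore given with and without wild-type replicate 4. A transcript level in whole worms does not tell a change per cell from a change in the amount of a tissue, and these cannot be told apart here.

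All 9 collagens had a higher mean in *dyf-1(mn335)* than in wild-type, by 0.40 to 2.62 on the log2 scale with a median of 1.00, where the median over all probe sets was -0.04. In limma, *dpy-2* and *dpy-7* rose (adjusted p under 0.01) and 0 of the 9 fell. This is 2 of 9, against 6.56% of all probe sets called higher and 3.46% called lower. At an adjusted p under 0.05, *dpy-3*, *dpy-8* and *sqt-3* joined them, 5 of 9 against 13.1% of all probe sets. In *dpy-2*, *dpy-3*, *dpy-7* and *dpy-8* all mutant arrays exceeded all wild-type arrays, which is 4 of 9 against 12.6% of all probe sets. The *dpy-10* probe set also rose and also had no overlap.

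Among the furrow collagens, *dpy-2* had log2 values of 7.05, 7.15, 6.35 and 6.93 in mutant replicates 1 to 4 and of 5.30, 5.30, 5.59 and 5.75 in wild-type replicates 1 to 4. The lowest mutant array lay 0.59 above the highest wild-type array. Its mean of 6.87 ± 0.36 in *dyf-1(mn335)* and 5.48 ± 0.22 in wild-type (SD, n = 4 each) gave a log2 fold change of 1.38 ± 0.20 (SE; 2.61-fold; adjusted p = 0.00184 in limma). The *dpy-10* probe set, which detects the neighbour of *dpy-2*, had 8.01, 7.91, 7.34 and 7.33 in the mutant arrays and 6.40, 6.17, 6.07 and 6.50 in the wild-type arrays. Its strains were as clearly apart, with a log2 fold change of 1.36 ± 0.20 (SE; 2.57-fold; adjusted p = 0.00184). In both, the difference lay well outside the spread of the 4 arrays of either strain.

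*dpy-7*, an X-linked furrow collagen whose promoter is widely used to drive expression in the epidermis, had 6.60, 6.20, 6.10 and 5.72 in the mutant arrays and 5.14, 5.30, 4.85 and 5.36 in the wild-type arrays. The 4th replicates of the strains came closest to each other, 0.36 apart. The log2 fold change was 1.00 ± 0.20 (SE; 1.99-fold; adjusted p = 0.00824). This call was lost without any one of replicates 1 to 3 of either strain, at an adjusted p of 0.022 to 0.0279, and also after the arrays were centred on their medians (0.0163), after cyclic loess (0.0155) and with an intensity trend and robust spread (0.0117).

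*dpy-8* and *dpy-3*, also X-linked, did not pass the threshold although their strains did not overlap. The *dpy-8* values were 6.58, 6.95, 6.61 and 5.91 in the mutant arrays and 5.15, 5.82, 5.50 and 5.37 in the wild-type arrays. They gave a log2 fold change of 1.06 ± 0.23 (SE; adjusted p = 0.012), and mutant replicate 4 and wild-type replicate 2 were only 0.095 apart. Without wild-type replicate 4 the log2 fold change of *dpy-8* was 1.03 (adjusted p = 0.0123). Leaving out mutant replicate 4 instead gave 1.26, which passed (adjusted p = 0.00378). *dpy-3* had 5.80, 5.79, 6.01 and 5.58 in the mutant arrays and 4.79, 4.65, 4.76 and 5.52 in the wild-type arrays. Here wild-type replicate 4 was close to the mutant arrays and the other wild-type arrays were not. The log2 fold change of *dpy-3* was 0.86 ± 0.21 (SE; adjusted p = 0.0163), and its wild-type mean of 4.93 was under 5, a range in which array signals are dim and fold changes are poorly measured.

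For each of *dpy-2*, *dpy-3*, *dpy-7*, *dpy-8* and the *dpy-10* probe set the exact two-sided permutation test gave p = 0.0286, which is as low as 8 arrays in 2 groups of 4 can reach. The 4 furrow collagens with an annotation of their own had log2 fold changes between 0.86 and 1.38 and standard errors between 0.20 and 0.23. *dpy-9*, the remaining furrow collagen, was dim in both strains, at 4.199 to 4.595 in the mutant arrays and 3.847 to 4.197 in the wild-type arrays. Its log2 fold change of 0.36 did not pass (adjusted p = 0.10), and the strains only just did not overlap.

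**Figure D1:**
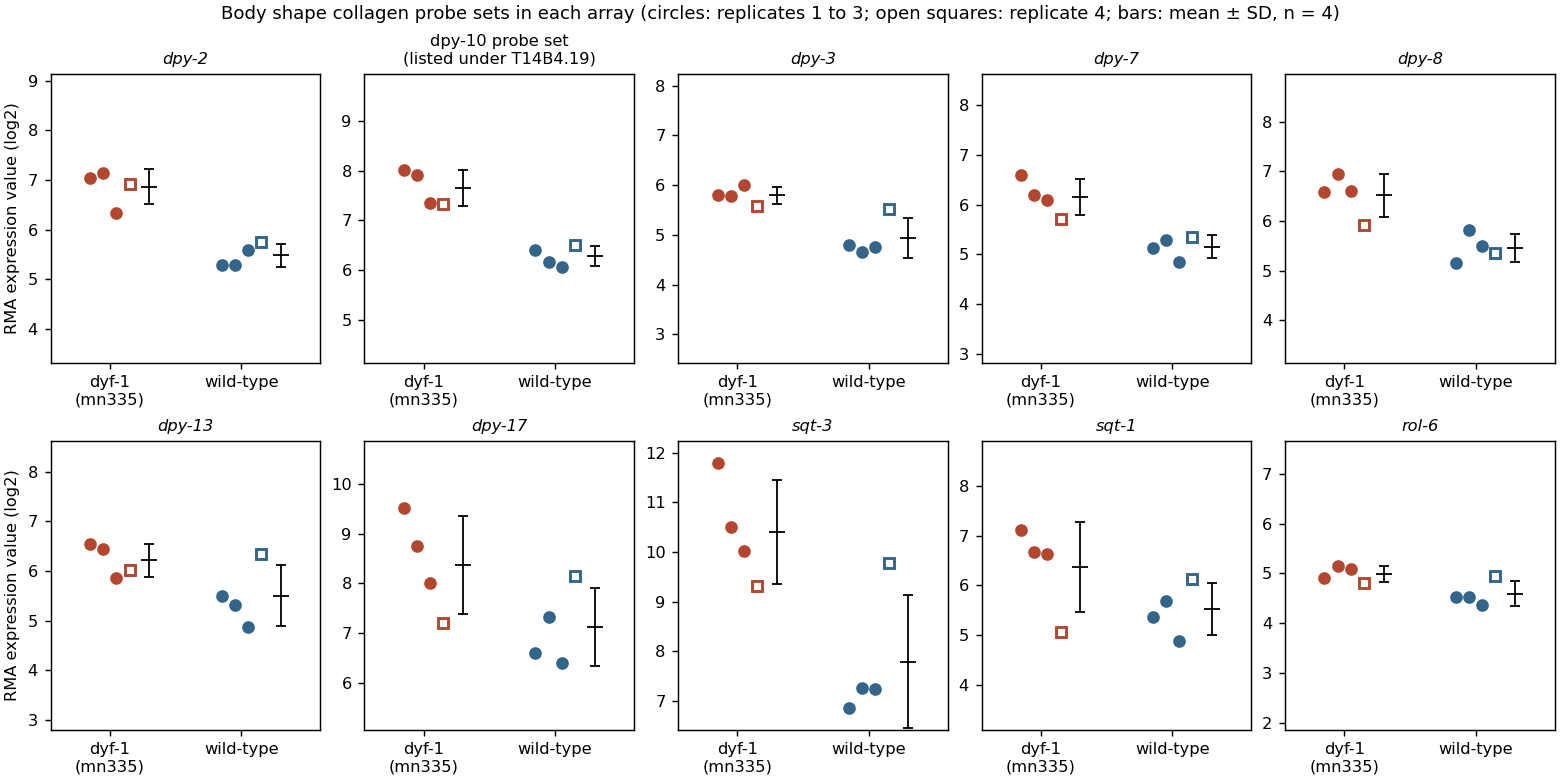
RMA log2 expression values of the 9 collagens and of the *dpy-10* probe set in each array, with *dyf-1(mn335)* on the left and wild-type on the right of each panel; circles are replicates 1 to 3, open squares replicate 4 and bars the mean ± SD of 4 arrays, and all panels span the same number of log2 units at different levels. In the upper row the strains do not overlap, and in the lower row wild-type replicate 4 lies within the mutant range.

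The 5 body shape collagens outside the furrow had 0 calls, and in each of them the arrays of the strains overlapped. Of all probe sets, 6.56% were called higher, and in 12.6% all mutant arrays exceeded all wild-type arrays. With only 5 genes, counts of 0 lie close to these shares. All 5 had a higher mean in the mutant, 4 of them at an unadjusted p under 0.05 from limma. *sqt-3* showed the widest separation of means. Its values were 11.79, 10.50, 10.03 and 9.31 in the mutant arrays and 6.87, 7.27, 7.25 and 9.78 in the wild-type arrays. Wild-type replicate 4 lay above mutant replicate 4 and 2.65 above the mean of wild-type replicates 1 to 3, while mutant replicates 1 to 3 lay 3.64 above that mean. Over all arrays *sqt-3* averaged 10.4 ± 1.04 in *dyf-1(mn335)* and 7.79 ± 1.34 in wild-type (SD, n = 4 each), a log2 fold change of 2.62 ± 0.69 (SE; 6.13-fold; adjusted p = 0.0241; exact two-sided permutation p = 0.0571). Without wild-type replicate 4 it was 3.28 (adjusted p = 0.00106).

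*dpy-17*, which acts with *sqt-3*, had 9.51, 8.75, 8.02 and 7.21 in the mutant arrays and 6.61, 7.33, 6.41 and 8.15 in the wild-type arrays. Wild-type replicate 4 was above mutant replicates 3 and 4, and mutant replicate 4 was below wild-type replicates 2 and 4. Its log2 fold change was 1.25 ± 0.52 (SE; adjusted p = 0.107; exact two-sided permutation p = 0.143). Without wild-type replicate 4 it was 1.59 and still did not pass (adjusted p = 0.0311).

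*dpy-13*, the collagen of the annuli, had 6.54, 6.45, 5.85 and 6.01 in the mutant arrays and 5.49, 5.31, 4.88 and 6.33 in the wild-type arrays. Only wild-type replicate 4 reached into the mutant range. The log2 fold change was 0.71 ± 0.30 (SE; adjusted p = 0.111) over all arrays and 0.99 (adjusted p = 0.00702) without that array.

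*sqt-1* had 7.11, 6.68, 6.63 and 5.06 in the mutant arrays and 5.37, 5.69, 4.89 and 6.13 in the wild-type arrays. Mutant replicate 4 lay among the wild-type arrays, and the log2 fold change of 0.85 ± 0.43 (SE) did not pass with wild-type replicate 4 (adjusted p = 0.176) or without it (1.05, adjusted p = 0.0919). *rol-6*, dim in both strains, had 4.91, 5.16, 5.10 and 4.80 in the mutant arrays and 4.53, 4.54, 4.36 and 4.95 in the wild-type arrays. This was the lowest log2 fold change of the 9 collagens, at 0.40 ± 0.16 (SE; adjusted p = 0.0992).

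The collagens also shared a pattern across the arrays of 1 strain. Wild-type replicate 4 was the highest wild-type array in 8 of the 9 collagens, all but *dpy-8*, and mutant replicate 4 was the lowest mutant array in 7. The share of all probe sets with this order was not computed. Both arrays stood apart over all probe sets, so these counts are not read as particular to the collagens. Relative to the mean of wild-type replicates 1 to 3, the 4th wild-type array was higher by a median of 0.79 over the 9 collagens, and mutant replicates 1 to 3 by a median of 1.23, where the medians over all probe sets were 0.01 and -0.05. The shift of wild-type replicate 4 ranged from -0.12 to 0.79 in the 4 furrow collagens and from 0.47 to 2.65 in the other 5. Whether these sets differ in that shift was not tested. Centred on each gene's mean over the 8 arrays, the 9 collagens averaged 1.03, 0.78, 0.45 and -0.01 in mutant replicates 1 to 4 and -0.82, -0.60, -0.91 and 0.08 in wild-type replicates 1 to 4.

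Without wild-type replicate 4, 5 of the 9 collagens were higher at an adjusted p under 0.01 from limma, where 13.3% of all probe sets were. These were *dpy-2*, *dpy-3*, *dpy-7*, *dpy-13* and *sqt-3*, and the median log2 fold change of the 9 was 1.06. Without both replicate 4 arrays, an alternative chosen after seeing the data, all 9 were called higher, where 4977 of 29317 probe sets were. The largest adjusted p among them was then 0.00735, for *dpy-13* (limma), and the median was 1.23.

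**Figure D2:**
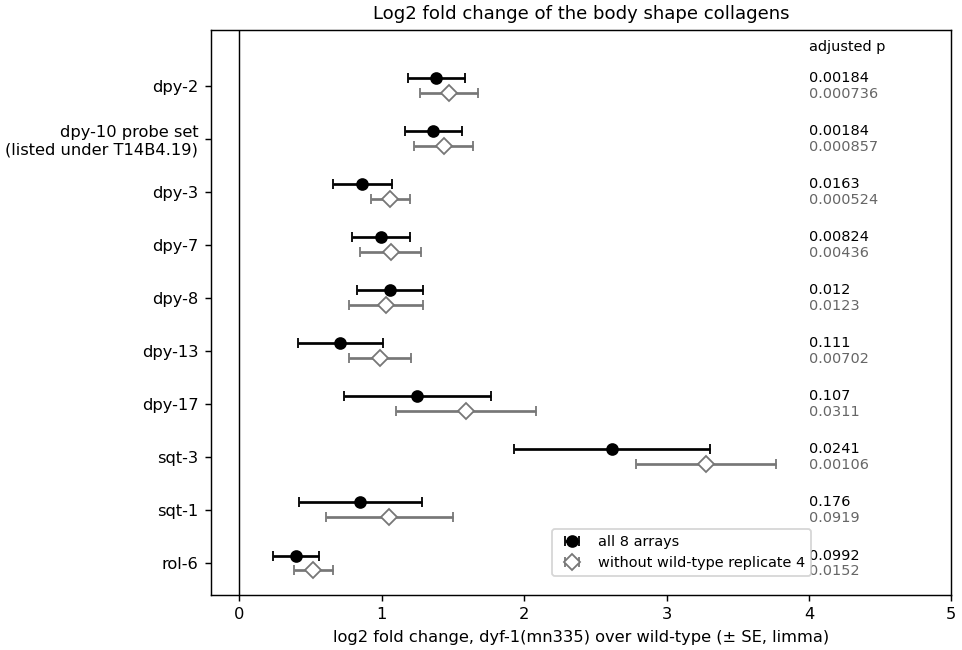
Log2 fold change of each collagen, *dyf-1(mn335)* over wild-type, from limma over all 8 arrays (filled circles) and without wild-type replicate 4 (open diamonds), with bars of ± 1 standard error and the adjusted p-values at the right. All 10 points of either kind lie above 0, and over all 8 arrays the bar is shortest for *rol-6* at 0.16 and longest for *sqt-3* at 0.69.

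For 3 pairs of related collagens the difference of the log2 values within an array was compared between the strains, which asks whether one member of the pair changed more than the other. The level of this difference depends on the probes and carries no meaning by itself. *sqt-3* minus *dpy-17* was 2.27, 1.75, 2.01 and 2.10 in the mutant arrays and 0.26, -0.07, 0.84 and 1.63 in the wild-type arrays. All mutant arrays exceeded all wild-type arrays, so that *sqt-3* differed between the strains by 1.37 more than *dpy-17* (SE 0.39; exact two-sided permutation p = 0.0286; adjusted p = 0.0857 over 3 pairs). With 3 pairs this adjustment leaves 0.0857 as the lowest value for a pair that alone reaches the smallest p. *rol-6* minus *sqt-1* differed by -0.45 ± 0.43 (SE; exact two-sided permutation p = 0.314), with one mutant array, replicate 4 at -0.25, far from the others at -2.20 to -1.52. The *dpy-10* probe set minus *dpy-2* was 0.96, 0.76, 1.00 and 0.40 in the mutant arrays and 1.1, 0.88, 0.48 and 0.75 in the wild-type arrays. These overlapped throughout, with a difference of -0.02 ± 0.19 (SE; exact two-sided permutation p = 0.943).

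**Figure D3:**
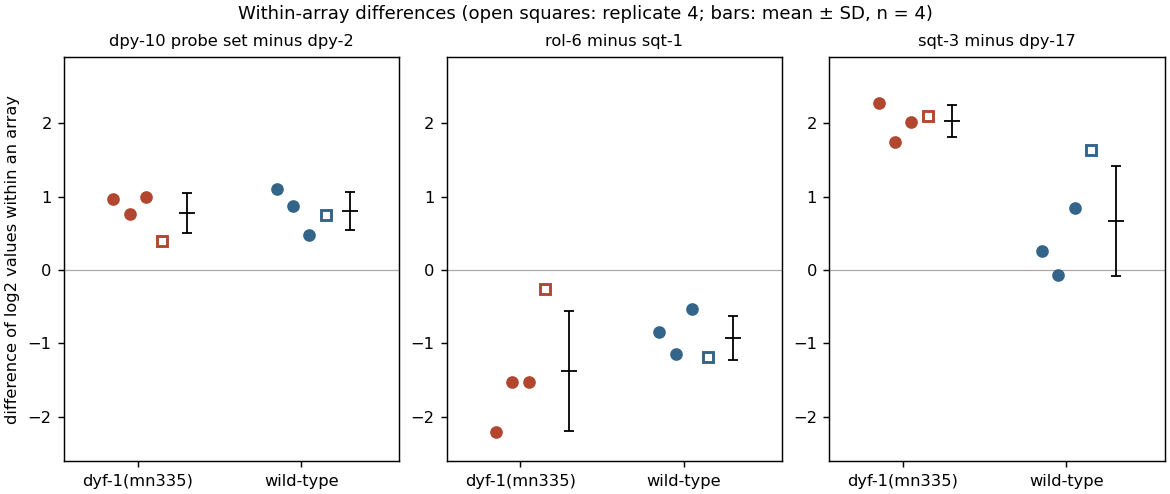
Difference of log2 values within each array for 3 pairs of collagens, *dyf-1(mn335)* left and wild-type right, with replicate 4 as open squares and bars of mean ± SD of 4 arrays. For *sqt-3* minus *dpy-17* the mutant arrays lie between 1.75 and 2.27 and all wild-type arrays at or below 1.63, and for the other pairs the strains overlap.

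Other collagens of body shape had no call over all 8 arrays, where 6.56% of all probe sets were called higher and 3.46% lower. Of 11 measured genes of this kind, 0 were called in either direction by limma, 4 higher and 1 lower had an unadjusted p under 0.05, and the median log2 fold change was 0.41. *lon-3*, whose loss lengthens the body, had 0.57 (adjusted p = 0.0323) and *dpy-14* 0.53 (adjusted p = 0.0588), both with no overlap between the strains. The blister collagen *bli-6* had -1.23 (adjusted p = 0.0368), with 5.14 to 6.92 in the mutant arrays and 7.34 to 7.52 in the wild-type arrays. *bli-1* had a log2 fold change of 0.74, *rol-1* of 0.73, *dpy-4* of 0.62, *sqt-2* of 0.41, *rol-8* of 0.10, *bli-2* of -0.12 and *dpy-5* of -0.27, and the strains overlapped in all 7. *lon-3* and *sqt-2* were dim in both strains, *bli-1* and *rol-8* in wild-type and *dpy-5* in the mutant. With wild-type replicate 4 left out, *lon-3* (0.68, adjusted p = 0.0049) and *dpy-4* (0.90, adjusted p = 0.00853) were called higher, where 13.3% of all probe sets were. With both replicate 4 arrays left out 3 of the 11 were, where 4977 of 29317 probe sets were.

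The larger family of cuticle collagens named *col* moved both ways. Of 153 *col* genes, limma called 14 higher and 12 lower in *dyf-1(mn335)* (adjusted p under 0.01), against 6.56% and 3.46% of all probe sets. Their median was -0.04, as over all probe sets, and 72 of the 153 had a higher mean in the mutant. Without wild-type replicate 4, 19 were called higher and 16 lower, where 3893 and 3788 of 29317 probe sets were. Leaving out one array among replicates 1 to 3 of a strain left 4 to 6 called lower, where 324 to 494 of 29317 probe sets were. The calls with the smallest adjusted p included *col-10* at 12.1 to 12.5 in the mutant arrays and 9.86 to 10.6 in the wild-type arrays, a difference of 2.02 on the log2 scale (adjusted p = 0.000262). *col-144* rose by 1.88 and *col-167* by 2.69 on the same scale. In the other direction, *col-179* fell by 1.61, *col-106* by 1.06 and *col-159*, dim in the mutant, by 2.69. *col-19*, a collagen of the adult cuticle, fell by 0.89, with 9.44 to 10.2 in the mutant arrays and 10.58 to 10.98 in the wild-type arrays (adjusted p = 0.00919). Of the 3 measured collagens outside the cuticle, the type IV collagens *emb-9* (-0.18) and *let-2* (-0.06) of the basement membrane and *mec-5* (-0.09) of the touch neurons, none passed in limma, also at an unadjusted p under 0.05.

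**Figure D4:**
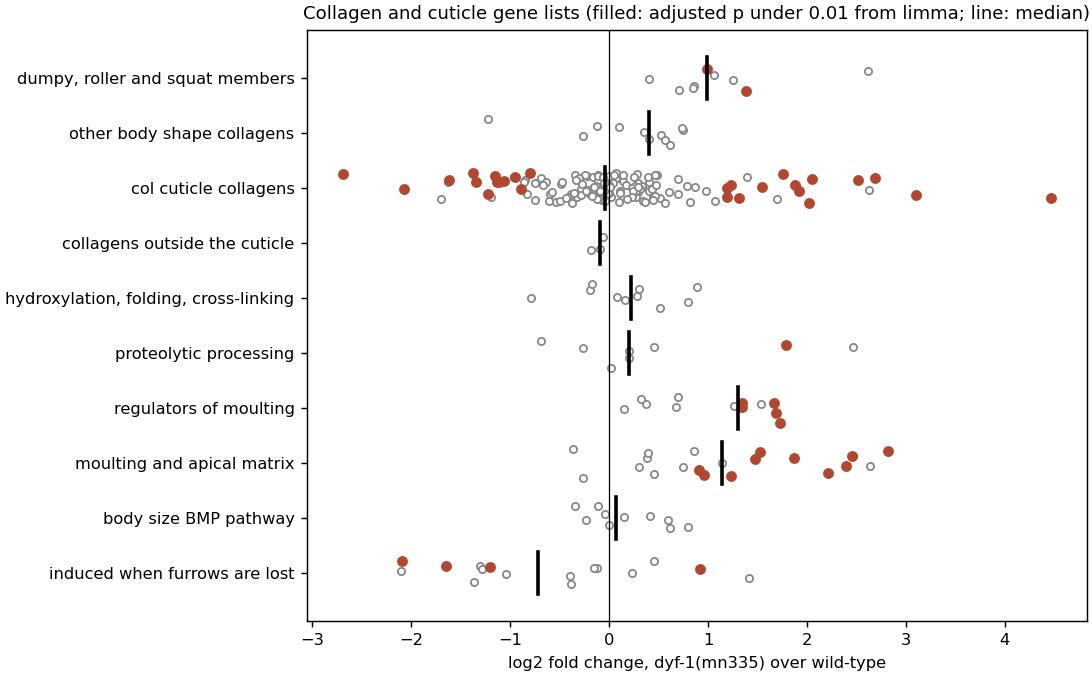
Log2 fold changes, *dyf-1(mn335)* over wild-type, of the 9 collagens (top row) and of other collagen and cuticle gene lists, 1 point per gene; filled points passed an adjusted p under 0.01 from limma and vertical bars are list medians. The 9 collagens lie at 0.40 to 2.62, the *col* genes on both sides of 0, and the regulators and genes of moulting mostly above 0, with medians of 1.30 and 1.15.

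Enzymes that modify and fold collagens had no call over all 8 arrays, where 6.56% of all probe sets were called higher and 3.46% lower. Of 10 measured genes for hydroxylation, folding and cross-linking, limma called 0 higher and 0 lower, with 3 higher and 1 lower by an unadjusted p below 0.05 and a median log2 fold change of 0.23. Prolyl 4-hydroxylases stabilise the collagen triple helix. The measured genes of this kind, which need not belong to the same enzyme, had log2 fold changes of 0.80 (*dpy-18*, adjusted p = 0.045), -0.19 (*phy-2*) and -0.79 (*phy-3*, dim in the mutant, adjusted p = 0.043). The protein disulfide isomerase gene *pdi-2* had 0.30 and the thioredoxin-like *dpy-11* 0.08. Among genes for tyrosine cross-linking, the dual oxidase *bli-3* had 0.51, its relative *duox-2*, dim in both strains, -0.17, the maturation factor *doxa-1* 0.89, the tetraspanin *tsp-15* 0.29 and the peroxidase *mlt-7* 0.16. In this list the median distance above wild-type replicates 1 to 3 was 0.38 for mutant replicates 1 to 3 and 0.67 for wild-type replicate 4. Of these 10 genes 3 were called higher once wild-type replicate 4 was left out, where 13.3% of all probe sets were.

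Of 8 genes for proteolytic processing, *nas-6*, dim in wild-type, rose by 1.79 (5.86 to 6.82 in the mutant arrays and 4.42 to 4.67 in the wild-type arrays, adjusted p = 0.000909) and 0 fell. This is 1 of 8 called higher, against 6.56% of all probe sets. NAS-6 is an astacin protease known from the cuticle of the pharynx. *dpy-31*, the astacin that trims SQT-3, had 0.20 (adjusted p = 0.452), and *bli-4*, the proprotein convertase of cuticle collagens, 0.02 (adjusted p = 0.935). The protease inhibitor *mlt-11* had 2.47 (adjusted p = 0.0179) with overlapping arrays, and *bli-5*, another inhibitor and dim in both strains, -0.69. Both passed once wild-type replicate 4 was left out, *mlt-11* at 3.04 (adjusted p = 0.000834) and *bli-5* at -0.95 (adjusted p = 0.00461). In this list 2 genes were then called higher and 1 lower, where 3893 and 3788 of 29317 probe sets were. The astacins *nas-7*, *nas-36* and *nas-37* had 0.46, 0.21 and -0.26, with *nas-36* dim in wild-type. Neither *dpy-31* nor *bli-4* thus differed beyond the spread between arrays.

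Genes of the moulting cycle, which controls when cuticle collagens are made, rose in part. Of 12 measured regulators, *bed-3*, *grh-1*, *blmp-1*, *myrf-1* and *nhr-85* rose in limma (adjusted p under 0.01) and 0 fell, with a median log2 fold change of 1.30. Of all probe sets, 6.56% were called higher and 3.46% lower. *bed-3*, a zinc finger protein of the moulting cycle, had 7.83 to 9.07 in the mutant arrays and 6.64 to 7.32 in the wild-type arrays (log2 fold change 1.73, adjusted p = 0.00323). *blmp-1*, a transcription factor of the epidermis, had a log2 fold change of 1.69, the nuclear receptor *nhr-85* of 1.67, the membrane-bound factor *myrf-1* of 1.35 and the Grainyhead gene *grh-1*, dim in wild-type, of 1.34. Of the others, *lin-42*, the worm's Period gene, had 1.54, *nhr-25* 1.26, *myrf-2* 0.70, *nhr-23* 0.68, *elt-1* 0.37, *elt-3* 0.33 and *lin-41* 0.15. None of these 7 passed, and in wild-type replicate 4 the regulators lay by a median of 0.83 above wild-type replicates 1 to 3, compared with 1.66 for mutant replicates 1 to 3. With wild-type replicate 4 left out, 9 of the 12 regulators were called higher, where 13.3% of all probe sets were. With any other wild-type array or one of mutant replicates 1 to 3 left out, 0 or 1 were. Over all probe sets, 932 to 1190 of 29317 were called higher in those cases.

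Of 21 genes of moulting and the apical matrix, 10 rose and 0 fell, against 6.56% and 3.46% of all probe sets. The median of the 21 was 1.15. Without wild-type replicate 4, 15 were called higher, where 13.3% of all probe sets were. When another wild-type array or one of mutant replicates 1 to 3 was left out, 3 to 6 were. Over all probe sets, 932 to 1190 of 29317 were called higher in those cases. *dpy-6*, which encodes a mucin-like protein and gives a dumpy mutant as the collagens do, had 7.65 to 8.12 in the mutant arrays and 5.74 to 6.04 in the wild-type arrays, a difference of 1.87 on the log2 scale (adjusted p = 0.000178). *dpy-20*, another dumpy gene that encodes a zinc finger protein, rose by 2.45 and the lipocalin *lpr-3* by 2.21. *dpy-20* was dim in wild-type. A part of this list, 6 genes taken as markers of the larval moult, had mean log2 levels of 8.0 to 9.27 in the mutant arrays and of 6.59 to 7.97 in the wild-type arrays, with 4 of 6 called higher. In these markers the median distance above wild-type replicates 1 to 3 was 1.07 for wild-type replicate 4 and 1.82 for mutant replicates 1 to 3. These markers moved with the collagens across arrays, and their part in the collagen result was not tested.

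**Figure D5:**
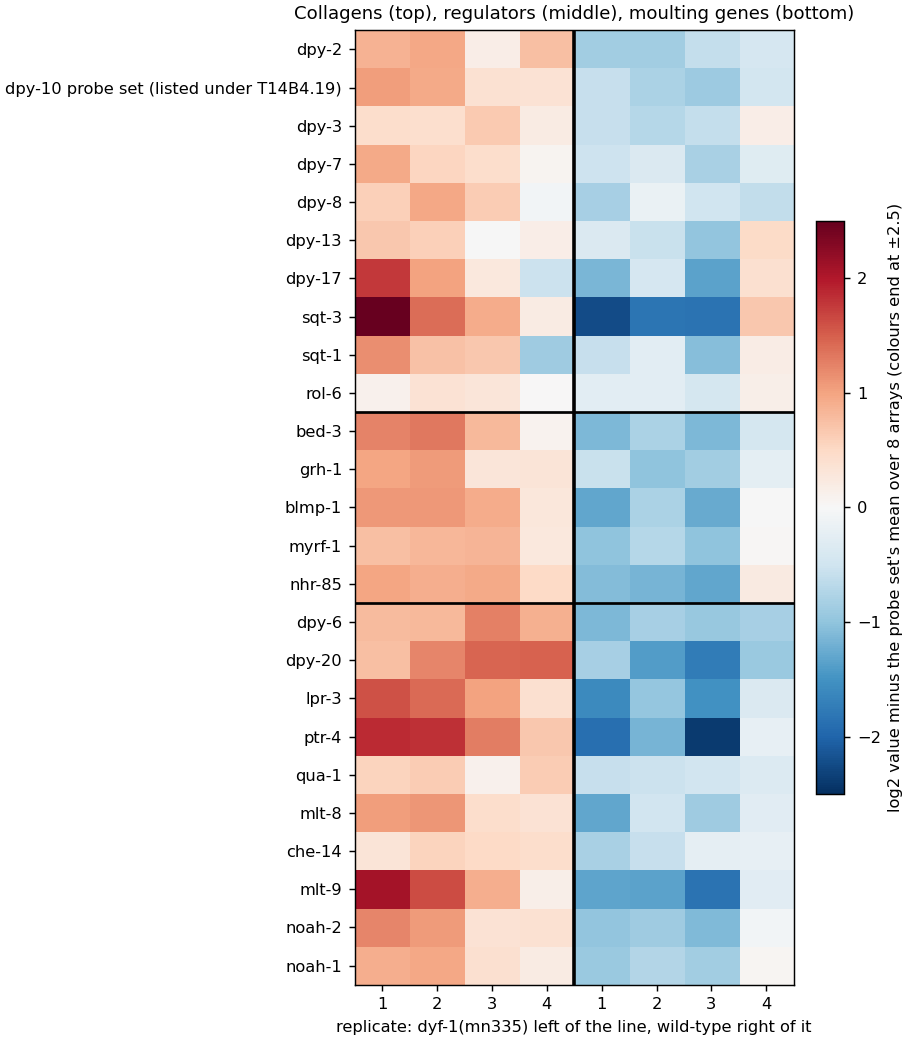
Log2 value minus the mean of the 8 arrays for the 9 collagens and the *dpy-10* probe set (top), the 5 regulators that rose (middle) and the 10 called genes of moulting and the apical matrix (bottom), with *dyf-1(mn335)* replicates left and wild-type replicates right of the line; red is above and blue below the gene's mean. Wild-type replicate 4 is the highest of the wild-type columns in all 5 collagens outside the furrow, as for *sqt-3* at 9.78 against 6.87 to 7.27. It is also the highest in 3 of the 4 furrow collagens with an annotation of their own, and the share over all probe sets was not computed.

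Among genes of body size, the 10 measured genes of the BMP pathway, which acts on cuticle collagens, had 0 calls in either direction from limma over all 8 arrays. Of all probe sets, 6.56% were called higher and 3.46% lower. Of the 10 genes 4 were higher at an unadjusted p under 0.05, and their median was 0.08. The ligand *dbl-1* had a log2 fold change of 0.59 and the receptors *sma-6* and *daf-4* -0.34 and 0.62. The Smad genes *sma-2*, *sma-3* and *sma-4* had -0.23, 0.42 and 0.00, the zinc finger cofactor *sma-9* 0.80, *sma-10*, a positive regulator at the membrane, 0.15, and the negative regulators *lon-1* and *lon-2* -0.04 and -0.11. Leaving out wild-type replicate 4 gave 3 calls, all higher, for *dbl-1* (0.87, adjusted p = 0.00103), *daf-4* (0.86, adjusted p = 0.00117) and *sma-9* (1.03, adjusted p = 0.00231). Over all probe sets, 13.3% were called higher without that array.

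Loss of the furrow collagens is known to turn on osmotic, detoxification and antimicrobial genes in the epidermis. Of 16 such genes, 3 fell in *dyf-1(mn335)* and 1 rose, against 3.46% and 6.56% of all probe sets. Their median log2 fold change was -0.71, and 9 were lower and 2 higher by an unadjusted p below 0.05. *gpdh-1*, an enzyme of glycerol synthesis, had 4.70 to 4.91 in the mutant arrays and 6.45 to 7.22 in the wild-type arrays. This log2 difference of -2.09 passed (adjusted p = 0.000264), and the transcript was dim in the mutant. The antimicrobial peptide genes *nlp-27* and *cnc-4* fell by 1.65 and 1.21, and *hmit-1.1*, which encodes a transporter of the osmotic response and was dim in wild-type, rose by 0.92. Compared with wild-type replicates 1 to 3, these genes were at a median of -0.71 in wild-type replicate 4 and of -1.06 in mutant replicates 1 to 3. Without wild-type replicate 4, 8 were called lower and 1 higher, where 3788 and 3893 of 29317 probe sets were. Without any other single array 1 was called lower. *hmit-1.1* was not called after centring, after cyclic loess, with an intensity trend and robust spread or with the replicate number as a block. Nor was it called when any one of replicates 1 to 3 of either strain was left out.

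Markers of the tissues in a whole worm were read beside these results. Of all probe sets, 6.56% were called higher and 3.46% lower over all 8 arrays. Without wild-type replicate 4 these were 3893 and 3788 of 29317. The 5 markers of the epidermis, which makes the collagens, had mean log2 levels of 9.81 to 9.89 in the mutant arrays. In the wild-type arrays they had 9.30 to 9.89, and 4 of the 5 had a higher mean in the mutant. *che-14* rose while *col-19* fell, a call that *col-19* lost after cyclic loess. With wild-type replicate 4 left out, *che-14* and *ajm-1* (1.36, adjusted p = 0.00118) were called higher and *col-19* lower. The 2 markers of the pharynx stood at 9.52 to 10.5 in the mutant arrays and 8.0 to 9.85 in the wild-type arrays, and were 1.54 higher in wild-type replicate 4 than in wild-type replicates 1 to 3. Neither *myo-2* nor *pha-4* of the pharynx was called over all 8 arrays, and both were called higher with wild-type replicate 4 left out (adjusted p = 0.00152 and 0.000547). Of 3 neuronal markers 2 rose, *rab-3* and *rgef-1*, and *unc-119* had a log2 fold change of -0.11. Their mean levels were 8.61 to 8.66 in the mutant arrays and 7.67 to 8.08 in the wild-type arrays. After cyclic loess 1 of the 3 was called higher. The 6 germline and oocyte markers stood at 10.2 to 10.8 in the mutant arrays and 10.4 to 11 in the wild-type arrays, and the 5 embryo markers at 5.89 to 6.24 in the mutant arrays and 6.26 to 6.88 in the wild-type arrays, each with 0 calls over all 8 arrays. Of the embryo markers, 2 (*end-3* and *pes-10*) were called lower with wild-type replicate 4 left out. The 3 sperm markers were at 4.61 to 5.11 in the mutant arrays and 4.73 to 5.84 in the wild-type arrays, the 3 body wall muscle markers at 9.01 to 9.41 in the mutant arrays and 8.63 to 9.35 in the wild-type arrays, and the 4 intestinal markers at 9.54 to 9.74 in the mutant arrays and 9.66 to 9.83 in the wild-type arrays. Of the intestinal markers, *ifb-2* rose by 0.83 (adjusted p = 0.00688) and the esterase gene *ges-1* fell by 1.21 (adjusted p = 0.00548), both with no overlap between the strains. The sperm and muscle markers had 0 calls over all 8 arrays, and with wild-type replicate 4 left out 1 muscle marker was called higher. The part of these tissues in the collagen result was not tested.

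The genes whose values followed the mean centred profile of the 9 collagens most closely over the 8 arrays were *appg-2*, with a Pearson correlation of 0.996, *ast-1* with 0.995, and *unc-3*, *syd-9* and *sel-7* with 0.993 each, out of 25469 genes. These correlations rest on 8 arrays that share the strain difference and the position of the 4th replicates. *unc-3*, a transcription factor of motor neurons, had 6.58 to 8.13 in the mutant arrays and 4.70 to 6.82 in the wild-type arrays. *ast-1*, also a transcription factor known from neurons, had 6.92 to 8.23 in the mutant arrays and 5.71 to 7.0 in the wild-type arrays. In both the highest wild-type array lay above the lowest mutant array. The log2 fold changes of the 5 genes were between 1.36 (*syd-9*) and 2.53 (*sel-7*), and their adjusted p from limma between 0.0115 and 0.0192, so that none of them passed at 0.01.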

How the data were processed

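Total RNA of pooled, synchronised day 1 adult hermaphrodites was hybridised to the array, and the authors applied the background adjustment, quantile normalisation and median polish of RMA (oligo package) and deposited the resulting log2 expression values for 29317 probe sets and 8 arrays. A difference shared by most probes of an array is removed by the quantile step, and probe-level data were not used here. All sample columns were used (0 left out). The platform annotation gives 1 gene for 25546 probe sets, several for 646 and none here for 3125. A gene was read from the probe set that names it alone, the brightest by the mean of 8 arrays. A mean log2 value under 5 was called dim, and levels of different probe sets were not compared.

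The strains were compared in limma 3.58.1 under R 4.3.3 (lmFit and eBayes, no covariates, two-sided), with Benjamini-Hochberg adjustment over the whole table and a threshold of 0.01, that of the study's legends. Every adjusted p in the text comes from this fit unless stated. Values of single genes and pairs were tested with exact two-sided permutation of the 8 arrays. The fit was tested on simulated data. Other software was Python 3.11.15, pandas 2.3.3, numpy 2.4.6, scipy 1.17.1 and matplotlib 3.10.9.

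Named genes were all 10 collagens, all measured genes of lists of 12 or fewer, up to 3 called genes per direction with the smallest adjusted p of longer lists, and the 5 genes closest to the mean collagen profile. Genes beside the collagens on the chromosome were added once their values were known. The collagens and gene lists were chosen with earlier results of these data known, and no list was tested as a set. *ram-4*, *cle-1*, *lin-29*, *phy-4.1* and *phy-4.2* of the lists have no probe set of their own here. Gene positions served only to find neighbours, from RefSeq (WBcel235), since no build is named for the array. Alternatives were an adjusted p under 0.05, a filter at a mean of 5, an intensity trend with robust spread, array weights, centring on array medians, cyclic loess, a replicate block, averaging over the probe sets that share a gene and leaving out each array. Leaving out both replicate 4 arrays and adding the *dpy-10* probe set were chosen after seeing the data.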

Additional observations from a re-analysis of the deposited data

Results flagged for a closer look

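In 24 of 216 groups of 4 arrays one array lay far from the other 3, with a gap to its nearest neighbour that exceeded Dixon's 95% critical value for its share of the range (which chance exceeds in about 1 of 20 groups), and 10 of the 24 were wild-type replicate 4. Among the collagens these were *sqt-3* in wild-type replicate 4, at 9.78 where the other wild-type arrays had 6.87 to 7.27, and *dpy-3* in the same array, at 5.52 where the others had 4.65 to 4.79. *col-106* had 9.06 in that array, below the others.

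The same array was set apart in genes of moulting and its regulators, at 9.47 for *nhr-25*, 8.21 for *nhr-85*, 6.95 for *lin-42*, 7.22 for *mlt-10* and 8.42 for *nas-37*, all above the other wild-type arrays, and in *gpdh-2* at 9.80 and *cnc-2* at 7.11, both below them. Mutant replicate 4 was set apart in *dpy-5* at 4.186, *dpy-11* at 10.9, *nhr-85* at 8.49, *myrf-1* at 9.75 and *lon-2* at 7.93, all below the other mutant arrays, and in *tsp-15* at 8.55, *mec-5* at 6.90, *nlp-28* at 9.10, *nlp-29* at 8.19, *cnc-4* at 8.39 and *col-10* at 12.5, all above them. In mutant replicate 2, *gpdh-1* was at 4.91 and *let-653* at 8.52, both above the others, and in mutant replicate 3 *qua-1* was at 5.91, below the others.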

How the results depend on the processing

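The direction of all 9 collagens and of the *dpy-10* probe set was kept in every alternative run, except that *rol-6* has no value under the filter on dim probe sets, which left it out. The median of the 9 was 0.861 to 1.26 when one array was left out, 0.84 after centring of the arrays and 0.88 after cyclic loess. The count of collagens called higher, 2 in the text, was 5 at an adjusted p under 0.05, 9 with array weights and 9 without both replicate 4 arrays. It was 1 with an intensity trend and robust spread, 1 after centring and 1 after cyclic loess, and 1 to 5 when one array was left out. Here 5 is the count without wild-type replicate 4, 3 that without mutant replicate 4, and 1 that without any one of replicates 1 to 3 of either strain. Over all probe sets, 1924 were higher and 1015 lower. These became 3848 and 3419 at an adjusted p under 0.05, 5489 and 5391 with array weights, 4977 and 4781 without both replicate 4 arrays, and 932 to 3893 higher and 324 to 3788 lower with one array left out. Higher calls made up 65.5% of all calls, against 47.8% after centring, which gave 1653 lower calls and moved the median over the whole table to -0.19. With the replicate number as a block (replicate block) 236 were higher and 79 lower, and 0 of the 9 collagens were called, with *dpy-2* at an adjusted p of 0.0212. Same-numbered arrays of the strains deviated from their strain means with correlations of -0.31, 0.01, -0.20 and -0.56, so the numbers were not taken as pairs. The difference between the *dpy-10* probe set and *dpy-2* changed sign, to 0.0206 after cyclic loess and within -0.13 to 0.104 with one array left out. The cause of these changes was not tested. The number of arrays, and dim values for *rol-6* and wild-type *dpy-3*, limit the precision.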

Other observations

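Genes next to the collagens on the chromosome moved in both directions. Of 17 measured protein-coding neighbours that are no member of the set, limma called 3 higher and 1 lower at an adjusted p under 0.01. Of all probe sets, 6.56% were called higher and 3.46% lower. The neighbours had a median log2 fold change of 0.17 and a range of -1.53 to 2.46. The comparison was chosen after the values were seen. The neighbours that rose were *npax-2* beside *dpy-3* (1.79), *tag-180* beside *sqt-1* (1.57) and F23H12.5 beside *sqt-3* (2.46), and *rmd-3* on the other side of *sqt-1* fell by 1.53. Both neighbours of *dpy-17* stayed near 0, with F54D8.6 at 0.01 and *sax-2* at -0.02. *col-34*, a cuticle collagen beside *dpy-13*, had 0.17 (adjusted p = 0.69), where *dpy-13* had 0.71.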
